A study of Mus musculus with 30 samples.

Results

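H3K27ac, acetylation of lysine 27 on histone H3, was mapped by ChIP-seq in motor neurons of the HD line, labelled Mnx1KO, and in wild-type (WT) motor neurons, with 2 libraries for each genotype. These 4 libraries of the 30 in the series gave 1 deposited peak list per genotype, 20698 regions for HD and 19174 for WT, out of 339038 regions in all 11 lists. A region of either list that overlapped the other list by at least 1 bp was called shared, and the remaining ones are called HD-only and WT-only. The HD list held 16559 shared and 4139 HD-only regions, and the WT list held 16712 shared and 2462 WT-only regions. Peak names in the WT list begin with K27ac_KO, which goes against that list's label, and the label was followed. A region present in 1 list missed the peak threshold of the other list, which is not a test of a difference, and the pooled lists carry no spread between libraries.

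The motor neurons came from mouse embryonic stem cells on day 6 of differentiation with RA, retinoic acid (1 µM), and the Smoothened agonist SAG (1 µM), joined for the last stage by doxycycline (1 µM) and the Notch pathway inhibitor DAPT (5 µM). All groups, WT included, received these agents. RNA was measured in 2 libraries each of HD motor neurons, of motor neurons of a second Mnx1KO line named EH, and of WT motor neurons. H3K27ac was mapped only in HD and WT. The labels explain neither line name, do not say how Mnx1 was altered or whether a line is 1 clone, and do not state that the libraries of a group came from independent cultures, so errors and p-values cover the spread between these libraries, which may be technical. Total expected counts were 11.2 and 12.4 M in HD, 39.8 and 39.7 M in EH and 13.9 and 13.9 M in WT. Mnx1 RNA stood at 429.9 and 367.5 CPM (counts scaled to library size) in HD, against 464.5 and 416.0 CPM in WT, and gene-level counts cannot show a change inside the gene.

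H3K27ac is deposited by the acetyltransferases p300 and CBP and marks active promoters and active enhancers. At promoters it lies beside H3K4me3, at enhancers beside H3K4me1, and it cannot share a histone tail with H3K27me3, the Polycomb mark placed on the same lysine. Mnx1, also called Hb9, is a homeodomain transcription factor of spinal motor neurons that is known as a repressor of interneuron genes in these cells.

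Some one-list regions lie on a gene's own start. Of these, 4 starts are shown as examples, from genes whose RNA also passed the test between HD and WT described below. St8sia4 and Lix1 met the same conditions and are not printed. The promoter of Dmrt3, a transcription factor of dorsal-born spinal interneurons, lies at chr19:25610287-25610586 on the plus strand. The promoter of Frzb, a secreted Wnt antagonist, lies at chr2:80447347-80447646 on the minus strand. That of Pcsk1, a protease that processes prohormones, lies at chr13:75089607-75089906 on the plus strand, and that of Nwd2 at chr5:63648853-63649152 on the plus strand. The first 3 starts fall in HD-only regions and the Nwd2 start falls in a WT-only region. Each sequence runs 5′ to 3′ along the gene's strand from 250 bases before the start to 50 after it (RefSeq, GRCm38.p6, the mm10 assembly). Capitals mark matches, on either strand, to TAATTA (a homeodomain core), TATAAA (the TATA box), GGGCGG (the GC box) or CCAAT.

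Dmrt3: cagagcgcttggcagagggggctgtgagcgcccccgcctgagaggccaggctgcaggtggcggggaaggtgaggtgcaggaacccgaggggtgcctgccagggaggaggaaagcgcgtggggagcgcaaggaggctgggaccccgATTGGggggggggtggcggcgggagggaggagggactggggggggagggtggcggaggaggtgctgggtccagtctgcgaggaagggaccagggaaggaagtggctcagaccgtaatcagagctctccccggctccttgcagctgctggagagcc
Frzb: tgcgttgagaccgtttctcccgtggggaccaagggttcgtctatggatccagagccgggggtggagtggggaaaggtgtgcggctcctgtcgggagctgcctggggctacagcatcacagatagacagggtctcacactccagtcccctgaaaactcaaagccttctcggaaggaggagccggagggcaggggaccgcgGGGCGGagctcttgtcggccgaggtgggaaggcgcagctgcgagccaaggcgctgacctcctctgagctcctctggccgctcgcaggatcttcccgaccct
Pcsk1: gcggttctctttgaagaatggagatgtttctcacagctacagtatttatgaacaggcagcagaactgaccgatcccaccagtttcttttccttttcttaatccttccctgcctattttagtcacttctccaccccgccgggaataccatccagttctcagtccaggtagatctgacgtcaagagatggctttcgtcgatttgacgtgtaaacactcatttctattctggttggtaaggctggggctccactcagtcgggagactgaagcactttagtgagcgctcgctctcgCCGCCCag
Nwd2: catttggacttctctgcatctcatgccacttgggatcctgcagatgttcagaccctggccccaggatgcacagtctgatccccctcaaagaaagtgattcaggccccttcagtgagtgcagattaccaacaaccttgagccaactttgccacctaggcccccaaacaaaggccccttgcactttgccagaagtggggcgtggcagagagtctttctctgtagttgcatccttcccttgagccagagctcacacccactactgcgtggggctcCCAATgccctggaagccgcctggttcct

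Dmrt3 and Nwd2 hold 1 CCAAT match each, as ATTGG on the reverse strand in Dmrt3, and Frzb and Pcsk1 hold 1 GC box each. None of the 4 windows holds TAATTA or TATAAA. The St8sia4 window, not printed, holds 1 GC box and 2 CCAAT matches, and the Lix1 window holds none of these motifs. Of all 32851 RefSeq promoter windows of this length, 5.29% hold TAATTA, 13.6% TATAAA, 35.7% GGGCGG and 37.4% CCAAT. Among windows of genes whose start carried H3K27ac in the HD list only, TAATTA was present in 3.77% of 424, against 3.13% of 192 for the WT list only and 2.45% of 10380 for both lists. A match here describes letters and does not show a bound site.

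Most H3K27ac was shared, and the one-list regions were the short, weak end of each list. Shared regions made up 80.0% of the HD list and 87.2% of the WT list by number. HD-only regions covered 3.06 Mb, 10.5% of the length of the HD list, and WT-only regions covered 1.64 Mb, 6.12% of the WT list. Their median length was 604 bp for HD-only and 564 bp for WT-only regions, against 1344 bp and 1276 bp for the shared regions of the HD and WT lists.

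Strength was read from the authors' own −log10 q of each peak and was compared within a list only. In the HD list the median −log10 q was 2.85 for HD-only and 13.4 for shared regions, and in the WT list it was 2.54 for WT-only and 9.71 for shared regions. Each list was cut into 10 bins of equal size by −log10 q, with bin 1 the weakest. HD-only regions made up 63.8% of bin 1 of the HD list, 11.5% of bin 5 and 0.0483% of bin 10, a single region. WT-only regions made up 48.1% of bin 1 of the WT list, 4.23% of bin 5 and 0 of bins 8 to 10. A region of the other list lay within 1 kb of 407 HD-only regions (9.83%) and 334 WT-only regions (13.6%). The lists hold no signal below their thresholds, so how many one-list regions narrowly missed the other list cannot be read from them.

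One-list regions lay mainly away from gene starts. A start here is within 2 kb of the start of a protein-coding gene. Starts held 14.5% of HD-only and 10.7% of WT-only regions, against 55.1% and 54.9% of shared regions in the HD and WT lists. Genes' interiors held 47.6% of HD-only and 47.3% of WT-only regions. Taken by place, 6.19% of the HD list's regions at starts, 33.0% of those inside genes and 31.3% of those outside were HD-only, and the same shares for WT-only regions in the WT list were 2.79, 22.3 and 22.9%. Leaving out Y, which held 2 regions in each list and no one-list region, the chromosomes ranged from 11.8% HD-only regions on X to 23.6% on 15, and from 5.92% WT-only regions on X to 16.8% on 16.

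**Figure D1:**
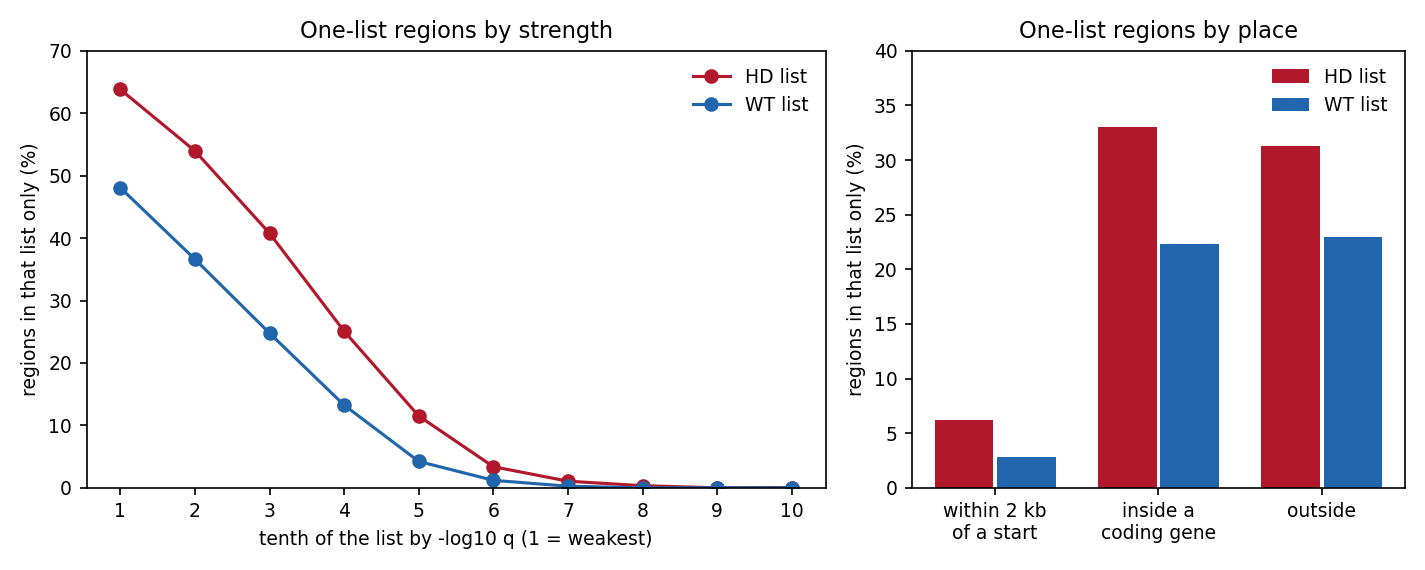
Share of each list's H3K27ac regions that the other list lacks (%), by strength bin of −log10 q (left) and by place (right), for the HD list (red) and the WT list (blue). The share falls with strength in both lists, to 0.0483% in the strongest HD bin and 0 in the strongest WT bin, and is lowest at gene starts, at 6.19% in HD and 2.79% in WT.

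The other marks give a readout of these regions from separate libraries. Away from starts, H3K4me1, the mark of enhancers, overlapped 79.5% of HD-only and 82.1% of WT-only regions in its HD list. In its WT list the shares were 80.7% and 88.1%. Shared regions away from starts stood at 92.9% (HD H3K27ac list) and 92.7% (WT H3K27ac list) in the HD H3K4me1 list. These shares do not allow for strength or length. Over all places, in strength bin 1 of the HD H3K27ac list, HD H3K4me1 overlapped 77.4% of HD-only and 88.8% of shared regions. In bin 1 of the WT H3K27ac list it overlapped 81.8% of WT-only and 83.1% of shared regions. Of all HD-only H3K27ac regions, 71.6% overlapped H3K4me1 in both genotypes, 4.76% in HD alone and 8.07% in WT alone. Of all WT-only regions, 77.5% overlapped H3K4me1 in both genotypes, 2.11% in HD alone and 9.14% in WT alone. Most one-list H3K27ac regions were thus listed for H3K4me1 in both genotypes, including the genotype without listed H3K27ac. The H3K4me1 lists differ in length, with 90369 regions in HD and 110851 in WT.

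At starts, H3K4me3 accompanied shared H3K27ac nearly always. In the HD list of H3K4me3, 76.1% of HD-only and 84.8% of WT-only start regions were overlapped, against 98.2% of the shared ones in either list. H3K27me3 showed the opposite order. In its HD list 19.6% of HD-only and 16.0% of WT-only start regions were overlapped, against 6.74% of shared ones in the HD H3K27ac list and 6.72% in the WT one. In the WT list of H3K27me3 the same shares were 27.1% of HD-only, 23.95% of WT-only and 12.8% and 12.6% of shared start regions. Overlap of 2 lists from pooled cells does not show both marks on the same chromosome copy.

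Regions labelled as bound by Mnx1, from 2 WT libraries, overlapped one-list H3K27ac less often than shared H3K27ac. The shares were 6.93% of HD-only and 6.62% of WT-only regions, against 25.8% and 25.4% of the shared regions of the HD and WT lists. The sample labels name Mnx1 as the target, while the antibodies listed in the protocol include one to GFP and none to Mnx1. Where an overlap had to cover at least 50% of the H3K27ac region, the shares were 1.57% of HD-only, 2.23% of WT-only and 2.77% of shared regions, so the size of the gap depends on the overlap required. Strength differs between the classes, so they were also set side by side within strength bins. In bins 1 to 5 of the HD list the Mnx1 share of HD-only regions was 3.94, 4.39, 7.58, 11.8 and 16.0%, against 9.35, 11.4, 13.0, 15.5 and 18.5% of shared regions. In bins 1 to 5 of the WT list the Mnx1 share of WT-only regions was 4.99, 5.56, 8.63, 10.2 and 9.88%, against 7.33, 12.3, 12.8, 16.6 and 19.7% of shared regions. The one-list share was below the shared one in each of these bins. Shared regions in the same bin were also longer and more often at starts. In bin 5 of the HD list their median length was 1120 bp, against 866 bp for HD-only regions, with 40.1 and 20.6% at starts. In bin 5 of the WT list the values were 1119 and 766 bp, and 41.3 and 12.3%. The part of length and place in the Mnx1 shares was not tested. Among HD-only regions the Mnx1 share was larger at higher strength, at 92 of 573 regions (16.1%) at a −log10 q of 5 or more.

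**Figure D2:**
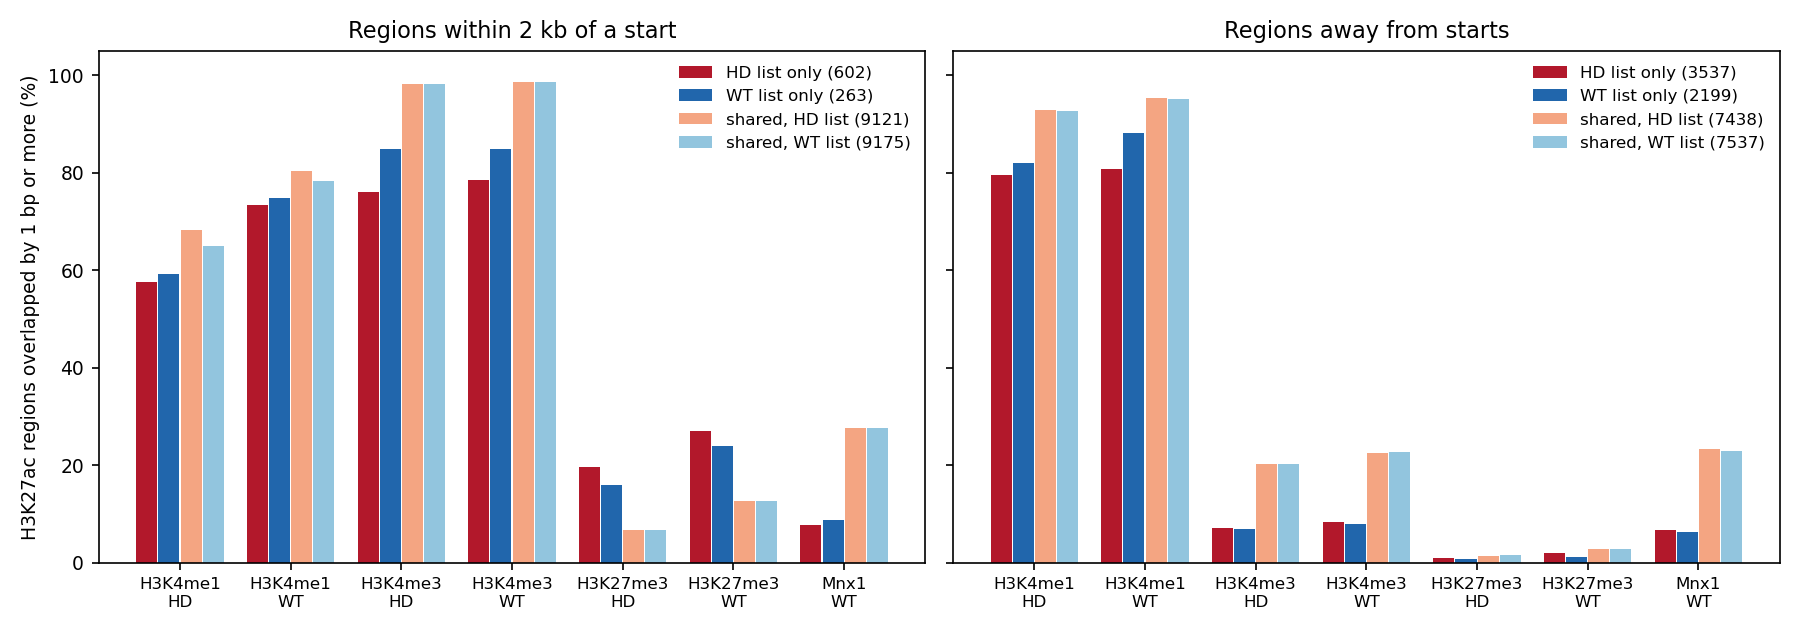
Share of H3K27ac regions (%) overlapped by at least 1 bp by H3K4me1, H3K4me3, H3K27me3 (HD and WT lists) and Mnx1 (WT list), for regions at starts (left) and away from starts (right), with the number of regions in the legend. Bars are HD-only, WT-only, shared in the HD list and shared in the WT list; at starts H3K27me3 of the HD list overlaps 19.6% of HD-only and 16.0% of WT-only regions, against 6.74 and 6.72% of shared ones.

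The strongest HD-only region stood far above the others. It spans chr16:42780020-42782919 (mm10), lies outside genes, 92.8 kb from the nearest start of Zbtb20, a zinc finger repressor gene, and has a −log10 q of 66.1 and an enrichment of 8.52, which ranks it 1361 of 20698 in the HD list. The next HD-only region reached 27.8. The Zbtb20 region was overlapped by H3K4me1 in both genotypes and by a Mnx1 region of WT, and no WT H3K27ac region lay within 90.9 kb. Zbtb20 RNA stood at 8.48 and 8.41 CPM in HD, against 6.98 and 6.75 CPM in WT. Both HD values were above both WT values, and the difference did not pass the test (log2 fold change 0.30 ± 0.17 SE, edgeR Benjamini-Hochberg adjusted p = 0.977).

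Among HD-only regions within 100 kb of a gene start, strong ones lay inside Scube2 (−log10 q 27.8), whose product releases Hedgehog proteins, 30.5 kb from the homeobox gene Nkx1-1 (27.4), inside the calpain gene Capn13 (27.2) and at the Frzb start (22.2). Further ones were 71.6 kb from Nfia (17.4), a transcription factor gene of glial and neuronal development, and at the Dmrt3 start (16.8). The strongest WT-only region was the one on the Nwd2 start, with a −log10 q of 13.8 and rank 6573 of 19174 in the WT list. Among WT-only regions within 100 kb of a gene start, the next lay inside Hmbox1 (12.4), inside Cntn1 (11.7), an axonal adhesion gene, outside Snrpb2 (10.97) and Rrp1 (10.5), and inside Sez6 (9.06). In the HD list 64 HD-only regions had a −log10 q of at least 10, and the Zbtb20 region was the only one of them in bin 10.

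The widest shared regions lay on genes of body position and axon guidance, and the 3 widest were the same in both lists. A region over Hoxb3 to Hoxb6, which set position along the body axis, spanned 54.6 kb in HD and 54.4 kb in WT. One inside Slit3, a guidance ligand, spanned 38.1 kb in HD and 34.5 kb in WT. The next widest were on Slit2 (22.5 kb) and Mnx1 (22.4 kb) in the HD list, and on Hoxa3 to Hoxa6 (22.7 kb) and again Slit3 (22.5 kb) in the WT list.

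RNA of the same motor neurons was used as a readout independent of the H3K27ac lists. HD was tested against WT with edgeR in 1 fit with EH (6 libraries, so EH helped set the spread) and, beside it, in a fit of the 4 HD and WT libraries alone. Of 13924 tested protein-coding genes with coordinates, 20 were called higher in HD (0.144%) and 5 lower (0.0359%) at an adjusted p of 0.05 in the 6-library fit. Together these are 0.18%, and the 4-library fit called 305 of 13666 (2.23%), 240 higher (1.76%) and 65 lower (0.476%). Over all genes, coding or not, the 6-library fit called 27 of 15565 (0.173%), 21 higher (0.135%) and 6 lower (0.0385%), and the 4-library fit 336 of 15182 (2.21%), 259 higher (1.71%) and 77 lower (0.507%). The 25 genes of the 6-library fit lost their call when any 1 HD or WT library was left out of that fit, as the closing section sets out. In bulk RNA, fewer cells of a type and less RNA per cell cannot be told apart.

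Genes called higher in HD were mostly nearest to HD-only H3K27ac. A region was assigned to the protein-coding gene with the nearest start within 100 kb. Of the 20 genes called higher, 15 had HD-only and no WT-only regions, while 1639 of all 13924 tested genes (11.8%) did. Of the 5 called lower, 2 had WT-only and no HD-only regions, against 751 of all tested genes (5.39%), and none had an HD-only region. In the 4-library fit, 109 of the 240 higher genes (45.4%) had HD-only and no WT-only regions, and 18 of the 65 lower genes (27.7%) had WT-only and no HD-only ones. The lists and these counts describe the members, and no test was run over genes.

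Most genes with one-list regions were not called. Of the 1639 tested genes with HD-only and no WT-only regions, 15 were called higher and 0 lower in the 6-library fit, and 109 higher and 5 lower in the 4-library fit. Both HD libraries lay above both WT libraries for 479 of them (29.2%) and below for 308 (18.8%), against 21.4% above and 22.6% below over all 13924. Their median log2 fold change was -0.0055, against -0.0146 over all genes. Of the 751 tested genes with WT-only and no HD-only regions, 1 was called higher and 2 lower in the 6-library fit, and 15 higher and 18 lower in the 4-library fit. HD lay above WT for 171 (22.8%) of these and below for 238 (31.7%), with a median log2 fold change of -0.04. Genes with no H3K27ac region nearest to them (3843 tested) had a median of -0.0636, with HD above WT for 14.8% and below for 26.9%. Genes with shared regions only (7385 tested) had a median of 0.0006. A median below 0 was thus not particular to genes with WT-only regions.

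Within 100 kb, the RNA median of genes with several WT-only regions lay below 0. On the HD side the median stood apart only at 5 or more regions. With 3 or more HD-only and no WT-only regions, 109 tested genes had a median log2 fold change of 0.05, and 23 of them were called higher and 0 lower in the 4-library fit. The 95 of them with 3 or 4 regions had a median of 0.0042, against 0.0238 for the 268 genes with 2. With 5 or more, 14 tested genes had a median of 0.83, and HD lay above WT in 10 of them and below in 1. With 3 or more WT-only and no HD-only regions, 29 tested genes had a median of -0.24, and HD lay above WT in 1 and below in 20. With regions assigned only within 20 kb, the medians for 3 or more regions were -0.05 for HD-only and 0.01 for WT-only, the latter over 3 genes. Both were opposite in sign to those within 100 kb.

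**Figure D3:**
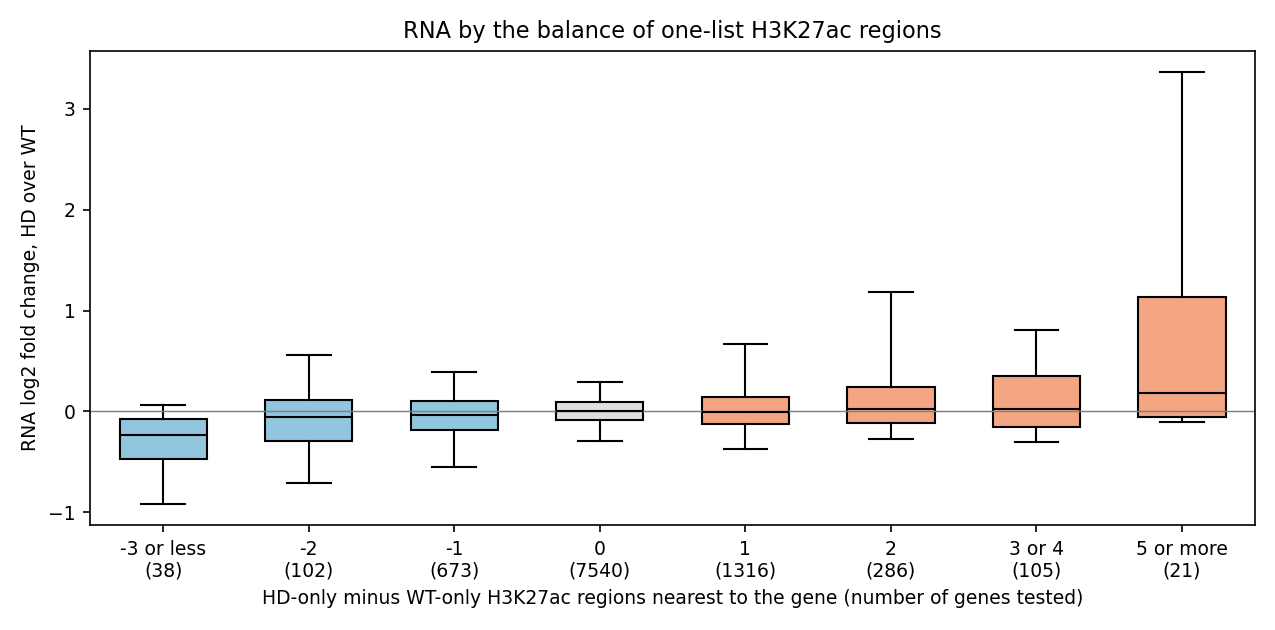
RNA log2 fold change of HD over WT by the number of HD-only minus WT-only H3K27ac regions nearest to each gene, with the number of tested genes under each box. Boxes show quartiles and median, and whiskers the 5th to 95th percentile; the median is -0.24 for genes at -3 or less and 0.18 for genes at 5 or more, and 0 for genes in balance.

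Genes whose start had H3K27ac in 1 list only were also mostly not called. Of 428 genes whose start carried H3K27ac in the HD list only, 393 were tested, 5 were called higher and 0 lower in the 6-library fit, and their median log2 fold change was -0.05. In the 4-library fit 25 were higher and 0 lower. Of 197 genes with a start in the WT list only, 176 were tested, 0 were called higher and 2 lower in the 6-library fit, and the median was -0.07. In the 4-library fit 2 were higher and 6 lower. Both HD libraries lay below both WT libraries for 59 of the 176 (33.5%) and above for 23 (13.1%). For the 393 HD-only starts these shares were 23.4% below and 24.7% above, and for starts in neither list 27.4% and 16.1%. Over all 13924 tested genes they were 22.6% and 21.4%. Genes with starts in both lists (9531 tested) had a median of -0.0017 and genes with starts in neither list (3824 tested) one of -0.0762. RNA of the one-list starts was moderate, with a median of 21.3 CPM in HD and 19.9 CPM in WT for the HD-only starts, and 16.7 CPM in HD and 18.1 CPM in WT for the WT-only starts.

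Dmrt3 had HD-only H3K27ac on its start and higher RNA in HD. Its RNA stood at 18.3 and 21.6 CPM in HD, against 3.24 and 3.31 CPM in WT. The groups did not overlap, and the log2 fold change was 2.61 ± 0.18 (edgeR Benjamini-Hochberg adjusted p = 0.0102). An HD-only region spans the start shown above. Measured from the annotated gene start, which lies upstream of the start shown, it runs from -0.289 to 1.46 kb. A second lies 5.05 kb inside the gene. Another, 5.01 kb upstream, was assigned to its neighbour Dmrt1, and no WT region lay within 365.5 kb of the start region. The start was listed for H3K4me1, H3K4me3 and H3K27me3 in both genotypes, so that in WT it was a listed start without listed H3K27ac.

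Frzb had 152 and 142 CPM in HD, against 28.8 and 38.2 CPM in WT. The groups did not overlap (log2 fold change 2.13 ± 0.14, edgeR Benjamini-Hochberg adjusted p = 0.0102). Its start carried an HD-only region of 2959 bp, again with H3K4me3 and H3K27me3 in both genotypes. A second HD-only region lay 48.1 kb downstream of the start, next to a shared region that a Mnx1 region overlapped.

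St8sia4, which encodes a polysialic acid synthase acting on the adhesion molecule NCAM, had 61.0 and 57.3 CPM in HD, against 17.2 and 19.5 CPM in WT (log2 fold change 1.69 ± 0.12, edgeR Benjamini-Hochberg adjusted p = 0.0102). Both of its HD-only regions lay within 2 kb of the start, and no WT region was listed within 350 kb of them. Pcsk1 had 28.5 and 23.7 CPM in HD, against 6.41 and 7.40 CPM in WT (log2 fold change 1.92 ± 0.23, edgeR Benjamini-Hochberg adjusted p = 0.0498). Its only H3K27ac region was the HD-only one on its start. Syt4, a synaptotagmin gene, likewise had a single, HD-only region, within 2 kb of a gene end. Its start site was not known, so either end stood in for it. Syt4 RNA stood at 76.5 and 62.2 CPM in HD, against 20.2 and 21.1 CPM in WT. These 5 genes, Dmrt3, Frzb, St8sia4, Pcsk1 and Syt4, are the 5 of the 20 higher genes with a start in the HD list only. For Syt4 this means either gene end. Their groups did not overlap.

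In other genes the start had H3K27ac in both lists and HD-only regions lay at a distance. Sorcs3, a sortilin-related receptor gene, had 98.6 and 87.4 CPM in HD, against 15.9 and 21.6 CPM in WT (log2 fold change 2.31 ± 0.27, edgeR Benjamini-Hochberg adjusted p = 0.0482). Around its shared start lay 4 HD-only regions, 24.7 kb upstream and 31.1, 35.3 and 75.5 kb downstream.

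Further called genes with HD-only regions had shared starts, where for Fras1 either gene end stood in for the start. Fras1, an extracellular matrix gene, had 6 HD-only regions and a log2 fold change of 1.05, and the L1-family adhesion gene Chl1 had 2 and 2.01. Lypd1 (2 regions, 1.81), Ddhd1 (2, 0.96), Lin7a (1, 1.86), Cttnbp2 (1, 1.55) and the netrin-G1 gene Ntng1 (1, 1.31) were likewise higher. Of the other called higher genes, Sema3c, a semaphorin guidance ligand, went with a WT-only region 14.4 kb from its start, and Cdh20, Unc5d and Nr2f1 had no one-list region nearest to them.

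Nwd2 had WT-only H3K27ac on its start and lower RNA in HD. Its RNA stood at 9.93 and 11.2 CPM in HD, against 70.3 and 55.7 CPM in WT. The groups did not overlap (log2 fold change -2.57 ± 0.19, edgeR Benjamini-Hochberg adjusted p = 0.0103). It had 4 WT-only regions, on its start, 33.7 kb upstream, and 51.7 and 54.4 kb inside the gene, and 2 more inside it, at 85.8 and 89.5 kb, went to a neighbouring gene end. The start was listed for H3K4me3 and H3K27me3 in both genotypes. Lix1 had 7.31 and 7.68 CPM in HD, against 17.2 and 17.7 CPM in WT (log2 fold change -1.22 ± 0.15, edgeR Benjamini-Hochberg adjusted p = 0.0498), and had a WT-only region on its start, overlapped by a Mnx1 region, and another 41.7 kb inside the gene. The other lower genes, Pou3f1, Zfp804a and Arhgap25, had no one-list region nearest to them.

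**Figure D4:**
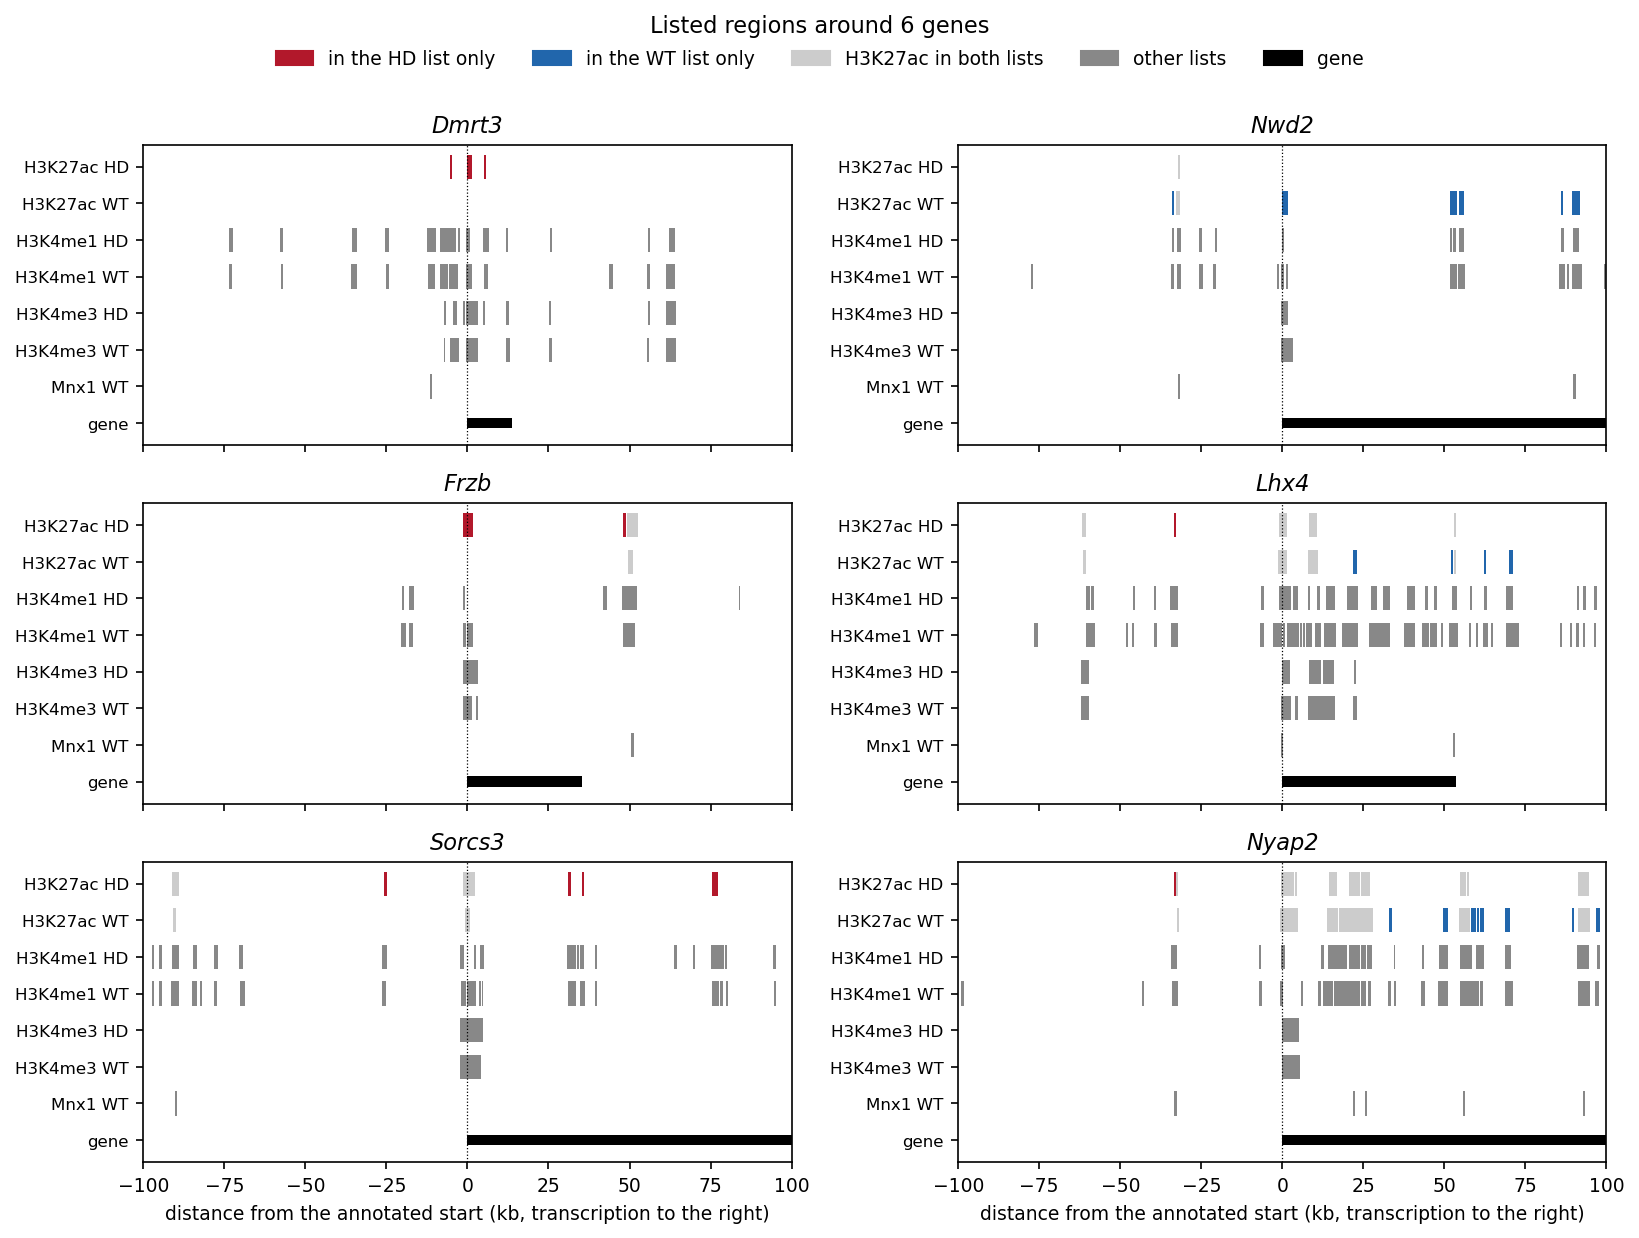
Listed regions around 6 genes, as distance in kb from the annotated start with transcription to the right, in lists of H3K27ac (HD, WT), H3K4me1, H3K4me3 and Mnx1. Red marks HD-only, blue WT-only and light grey shared H3K27ac; Dmrt3 shows 3 HD-only regions and no WT region, and Nwd2 shows 6 WT-only regions.

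Genes nearest to the most one-list regions included regulators of neuronal identity. Pbx3, a TALE homeodomain cofactor of Hox proteins, was nearest to 11 HD-only and 0 WT-only regions. Its RNA stood at 374.5 and 365.9 CPM in HD, against 161.7 and 175.3 CPM in WT, without overlap. Its log2 fold change of 1.14 ± 0.15 had an edgeR Benjamini-Hochberg adjusted p of 0.0544 in the 6-library fit and of 0.000464 in the 4-library fit. Pdzrn4 had 9 HD-only regions and 10.5 and 11.3 CPM in HD, against 2.89 and 4.53 CPM in WT. Foxp1, a forkhead gene that directs limb and column identity in motor neurons, had 8 HD-only and 2 WT-only regions, with 121 and 132 CPM in HD, against 52.6 and 70.04 CPM in WT. Nkx1-1 had 8 HD-only regions, 3 of them on or near its start, with 3.88 and 5.74 CPM in HD, against 0.141 and 0.790 CPM in WT. For Pdzrn4, Foxp1 and Nkx1-1 the libraries did not overlap either, and the edgeR Benjamini-Hochberg adjusted p lay between 0.158 and 0.197 in the 6-library fit and between 0.00609 and 0.02 in the 4-library fit. Septin9, with 7 HD-only and 2 WT-only regions, did not follow, with 378 and 418 CPM in HD, against 419 and 440 CPM in WT.

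On the WT side, Nyap2 had 8 WT-only regions and 1 HD-only region, with 74.1 and 68.4 CPM in HD, against 129 and 104 CPM in WT. Lhx4, a LIM homeodomain gene that specifies motor neurons, had 5 WT-only and 0 HD-only regions. Its RNA stood at 79.7 and 62.3 CPM in HD, against 175 and 143 CPM in WT, without overlap. The log2 fold change was -1.17 ± 0.16, with an edgeR Benjamini-Hochberg adjusted p of 0.06 in the 6-library fit and 0.00531 in the 4-library fit. All 5 of the Lhx4 regions were weak, with −log10 q from 1.23 to 2.41. Zfhx3, with 6 WT-only and 2 HD-only regions, and Pde4b, with 6 WT-only regions and 1 HD-only region, had log2 fold changes of -0.59 and -0.46, and both passed in the 4-library edgeR fit (Benjamini-Hochberg adjusted p = 0.0336 and 0.022). Patj, with 7 WT-only regions, stood at 40.6 and 39.3 CPM in HD, against 44.0 and 44.7 CPM in WT, and Cadm1, with 6 WT-only and 3 HD-only regions, showed overlapping libraries.

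**Figure D5:**
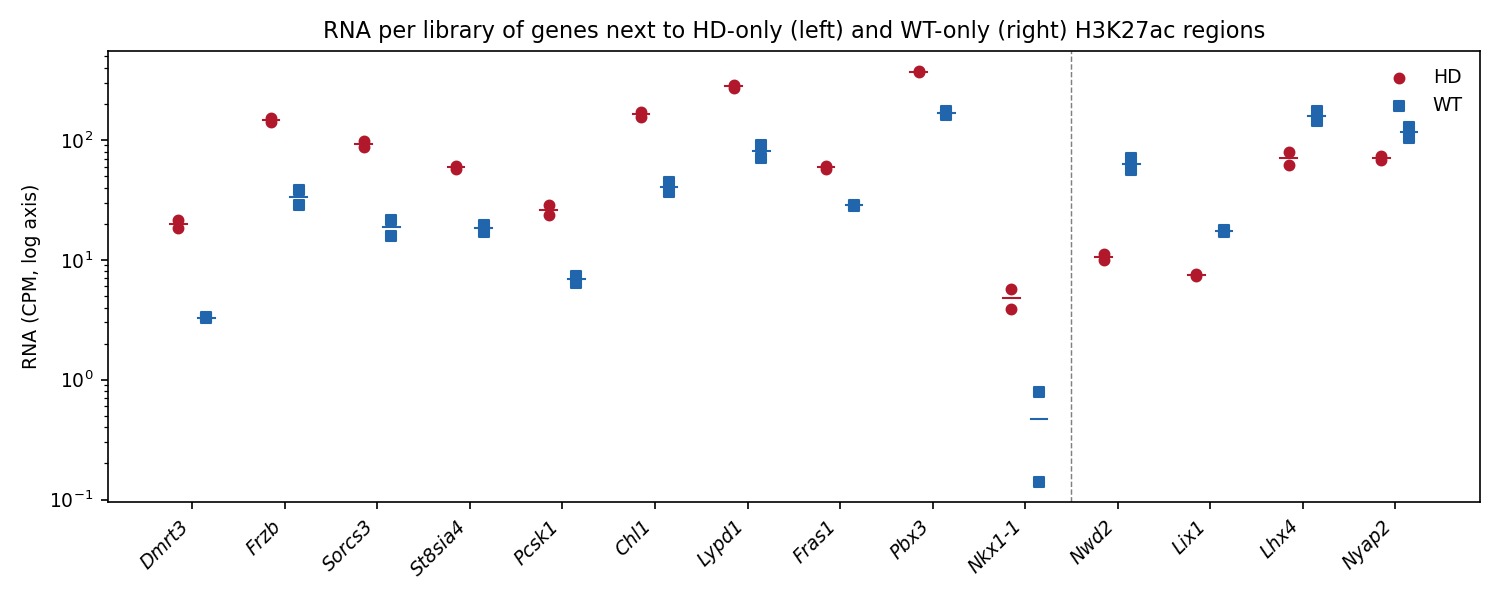
RNA per library (CPM, log axis) of 14 genes, with HD as red circles left of WT as blue squares and short lines at group means; 10 genes left of the dashed line have mostly HD-only and 4 right of it mostly WT-only H3K27ac regions nearest to them. HD lies above WT in the 10 genes and below in the 4, from 18.3 and 21.6 CPM against 3.24 and 3.31 CPM for Dmrt3 to 9.93 and 11.2 CPM against 70.3 and 55.7 CPM for Nwd2. Each of the 14 was called in the 6-library or the 4-library fit, so the separation follows from the choice of genes. Named genes that went the other way, such as Septin9 and Sema3c, are not drawn.

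Gene lists of cell identity were described by their H3K27ac and RNA together. Over all tested coding genes, the 6-library fit called 0.144% higher and 0.0359% lower, and the 4-library fit 1.76% and 0.476%. In the 6-library fit 46.2% of all log2 fold changes were above 0. Set against the motor neuron label, 16 of 20 spinal motor neuron genes and 19 of 20 pan-neuronal genes had H3K27ac at the start in both lists, as did 9885 of all 21887 coding genes and 9531 of the 13924 tested ones. Starts were in neither list for 11377 of all coding genes. The motor neuron genes had 6 HD-only and 11 WT-only regions, with the WT-only ones at Lhx4 (5), Mnx1 (2), Isl1, Slc18a3, Arhgap36 and Chodl (1 each) and the HD-only ones at Onecut2 (3), Onecut1, Cdh7 and Prph (1 each). None of the 20 passed the 6-library test. In the 4-library fit Lhx4, Isl2 and Arhgap36 were lower, and Onecut1, Onecut2 and Cdh7, whose start was in the HD list only, were higher. The motor column and pool genes had 22 HD-only and 5 WT-only regions, with 19 of the 22 at Pbx3 and Foxp1. Their summed RNA was 1004 and 992 CPM in HD, against 638 and 685 CPM in WT, and 1 of 14 genes passed the 6-library test, Pou3f1, a POU gene of motor neuron subsets, which was lower and had no listed H3K27ac nearest to it.

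Of 33 interneuron genes, 27 had no H3K27ac at the start in either list, 3 had it in both and 3 in the HD list only, namely Dmrt3, the zinc finger gene Gata2 and the forkhead gene Foxp2. These genes had 11 HD-only regions and 1 WT-only region. Of the 17 tested, Dmrt3 was called higher in the 6-library fit, Dmrt3 and the progenitor gene Sox1 in the 4-library fit, and none was lower in either. Their median log2 fold change was -0.15, with 8 of 17 above 0. Gata2 had 2 HD-only regions and 65.0 and 77.0 CPM in HD, against 73.9 and 99.9 CPM in WT, so that RNA did not go with its regions. The glycine transporter gene Slc6a5 had 3 HD-only regions, 2 of them at its start. It stood at 14.6 and 5.90 CPM in HD, against 1.90 and 2.51 CPM in WT (edgeR Benjamini-Hochberg adjusted p = 0.204 in the 6-library fit and 0.0495 in the 4-library fit).

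The axon guidance list had 25 HD-only and 9 WT-only regions over 34 genes. In the 6-library fit 4 of 33 tested genes were called higher (Chl1, Ntng1, Sema3c and Unc5d) and 0 lower. Over all tested coding genes 0.144% were higher and 0.0359% lower. Robo1, a Slit receptor gene, had 3 HD-only regions and 229 and 220 CPM in HD, against 150 and 137 CPM in WT (edgeR Benjamini-Hochberg adjusted p = 0.296 in the 6-library fit and 0.005 in the 4-library fit). Cadherin genes had starts in the HD list only at Cdh7, Cdh18 and Pcdh19, and in the WT list only at Cdh10, with 4 HD-only and 7 WT-only regions in all, 4 of the WT-only ones at Cdh6. Their RNA had a median log2 fold change of 0.53, with 15 of 20 above 0, against 46.2% of all 13924 genes. In the 6-library fit 1 was called higher (Cdh20). The 4-library fit called 9 higher and 0 lower, against 1.76% and 0.476% of all tested coding genes. Of 30 Hox genes, 17 had H3K27ac at the start in both lists, 2 (Hoxa3 and Hoxb9) in the HD list only and 0 in the WT list only, with 7 HD-only regions and 1 WT-only region. Hoxb9, where either gene end stood in for the start, had 26.7 and 36.6 CPM in HD, against 11.2 and 19.1 CPM in WT. None of the 26 tested Hox genes passed the 6-library test and 8 were higher in the 4-library fit, against 1.76% of all tested coding genes. Of their log2 fold changes 25 of 26 were above 0, against 46.2% of all 13924 genes.

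All 13 genes of H3K27 acetylation and deacetylation, such as the acetyltransferase gene Kat2b and the corepressor gene Ncor1, had H3K27ac at the start in both lists. None of them passed either test. The 20 cell cycle genes had no one-list region. Their RNA summed to 1036 and 1110 CPM in HD, against 1312 and 1401 CPM in WT, and all 20 log2 fold changes were below 0. None was called in the 6-library fit and 4 were lower in the 4-library fit, against 0.476% of all tested coding genes. The 9 pluripotency markers summed to 56.9 and 61.4 CPM in HD, against 85.3 and 93.6 CPM in WT, and 0 of 9 log2 fold changes were above 0, with 2 lower in the 4-library fit. None of those 9 was at 0 counts in all 4 libraries, and Pou5f1, which defines these cells, stood at 6.05 and 4.29 CPM in HD, against 7.82 and 8.55 CPM in WT. Whether other cells in the cultures play a part in the one-list regions was not tested.

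Markers of glia, floor plate, neural crest, endoderm, mesoderm and trophoblast had 0 to 9 HD-only and 0 to 4 WT-only regions per list, and none of their tested genes was called in either fit. Glial markers summed to 122 and 123 CPM in HD, against 105.3 and 114.9 CPM in WT. Among them Gfap and Olig1 were under 0.3 CPM in every HD and WT library, while Mbp stood at 45.6 and 48.2 CPM in HD, against 35.9 and 40.2 CPM in WT. Mesoderm markers summed to 49.5 and 56.2 CPM in HD, against 71.2 and 61.4 CPM in WT, with Mesp1 at 0 counts in all 4 libraries and Col3a1 at 17.7 and 19.2 CPM in HD, against 29.4 and 25.6 CPM in WT. Endoderm markers summed to 917 and 1187 CPM in HD, against 1045 and 1336 CPM in WT, of which the epithelial keratin gene Krt8 gave 517 and 706 CPM in HD, against 590 and 758 CPM in WT. Floor plate markers summed to 56.7 and 72.6 CPM in HD, against 65.5 and 69.0 CPM in WT, and neural crest markers to 274 and 237 CPM in HD, against 387 and 285 CPM in WT. RNA of genes listed as markers of other cells was thus present in both genotypes. Trophoblast markers summed to 389 and 535 CPM in HD, against 460 and 457 CPM in WT, and had 1 HD-only and 0 WT-only regions.

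RNA of EH, the second Mnx1KO line, is set beside HD for some of these genes. The EH and HD comparisons use the same WT libraries, and EH has no H3K27ac list. EH against WT gave 3301 calls of 15565 genes (21.2%), 1496 higher (9.61%) and 1805 lower (11.6%). Dmrt3 had a log2 fold change of 0.00 in EH (edgeR Benjamini-Hochberg adjusted p = 0.988), against 2.61 in HD, both over WT. Frzb had -1.07 in EH, which passed (edgeR Benjamini-Hochberg adjusted p = 0.00691), St8sia4 0.11 and Nwd2 0.09, which did not (0.541 and 0.719). Lhx4 had 0.47 in EH, with an adjusted p of 0.0791 from the same edgeR fit with Benjamini-Hochberg adjustment. Pcsk1 had -0.67 in EH and Sorcs3 0.78, with adjusted p-values of 0.0848 and 0.0791 from that fit. Pbx3 was higher in EH as well, at 0.74 (edgeR Benjamini-Hochberg adjusted p = 0.0187).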

How the data were processed

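H3K27ac, other marks and Mnx1 were measured by ChIP-seq (ThruPLEX libraries) and RNA by stranded poly(A) RNA-seq, in day 6 motor neurons. The submitters' processing notes name Trim Galore, Bowtie2, SAMtools, MACS2, STAR, RSEM, Subread, featureCounts, DESeq2 and mm10, with no role for each. The authors deposited 1 peak list per mark and genotype, each peak with a fold enrichment (a ratio) and a −log10 q. How the 2 libraries of a list were pooled and their depths are not given in the sources used here. The authors also deposited RSEM expected counts and TPM per gene, per the file headers.

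Regions on autosomes, X and Y were kept, and entries with the same coordinates were kept once. That removed 2 of 19176 H3K27ac entries in WT and 0 of 20698 in HD. Regions were compared by overlap of at least 1 bp. Expected counts were rounded and fitted with edgeR 4.0.16 (R 4.3.3; TMM scaling, filterByExpr, quasi-likelihood test, Benjamini-Hochberg adjustment at 0.05) over the HD, EH and WT motor neuron libraries, with 3 residual degrees of freedom. The HD and WT libraries alone left 2. Of 15565 tested genes, 13924 were matched to protein-coding genes with RefSeq coordinates (GRCm38.p6). A start site was known for 17492 of 21887 coding genes, and either end stood in for the other 4395. Among the genes named above, those without a known start site include Syt4, Fras1, Hoxb9 and Pbx3. Named genes were those called, those with the strongest one-list regions within 100 kb and those with the most one-list regions. Members and gene lists were chosen with earlier results of these data known. The fit was tested on simulated counts. Alternatives were RLE scaling, no filter, DESeq2 1.42.0, limma 3.58.1 on log2(TPM + 1), a replicate block, leaving out each library, stricter peaks, other overlaps and other distances. Replicate numbers were not taken as pairs. A few genes of the naming rule and lists are not reported here.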

Additional observations from a re-analysis of the deposited data

Results flagged for a closer look

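RNA of genes nearest to WT-only H3K27ac regions, with no HD-only region, lay on opposite sides of the WT mean in the 2 Mnx1KO lines. Over 751 genes the median difference from the WT mean was -0.0398 (log2 CPM) in HD and 0.0758 in EH. The HD libraries stood at -0.0309 and -0.0487, and the EH libraries at 0.041 and 0.1107. The WT libraries themselves stood at 0.0147 and -0.0147. Genes with no region stood at -0.0638 and -0.0388 in the HD libraries and at -0.0049 and -0.1182 in the EH libraries. Genes with shared regions only stood at 0.0057 and 0.0011 in HD and at 0.03 and 0.0291 in EH. An HD median below the WT mean was thus not particular to genes with WT-only regions.

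The 29 genes with 3 or more WT-only and no HD-only regions also lay on opposite sides of the WT mean, at -0.2218 in HD and 0.1435 in EH. The HD libraries stood at -0.2336 and -0.21, and the EH libraries at 0.0043 and 0.2826. The WT libraries themselves stood at 0.0574 and -0.0574, so EH library 1 lay between them and the EH side rests on EH library 2. Neither difference was tested. Both lines are set against the same 2 WT libraries, EH was sequenced more deeply, at 39.8 and 39.7 M expected counts against 11.2 and 12.4 M in HD, and the part of depth in these medians was not tested.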

How the results depend on the processing

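The calls between HD and WT depended on the fit. The 27 called genes became 142 with no filter on low counts, 336 with the HD and WT libraries alone and 182 in DESeq2, and all 27 were among the calls of each. RLE scaling gave 20 calls, all among the 27, and limma on TPM 26, of which 12 were among the 27. Leaving out each HD or WT library from the 6-library fit gave 0 to 0 calls, with 525 to 640 genes at an unadjusted p under 0.05, and from the HD and WT fit 203 (without HD replicate 1), 533 (HD replicate 2), 266 (WT replicate 1) and 311 (WT replicate 2), an alternative chosen after seeing the data. In both, the lone library was assumed to vary like the others. With the replicate block 0 genes were called and 765 had an unadjusted p under 0.05. The numbers were not taken as pairs, since the correlation of deviations was 0.102 between HD and WT and -0.137 between HD and EH, with 2 pairs each. The cause of these changes was not tested.

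Of the region counts, WT-only regions fell to 1502 when both lists were held to a −log10 q of 3. For genes whose start carried H3K27ac in both lists, the median log2 fold change was -0.0132 with no filter, -0.011 on TPM and 0.0001 to 0.0059 without each library. Within 20 kb the median was -0.0488 for genes with 3 or more HD-only regions and 0.0113 for the 3 genes with 3 or more WT-only regions. Where overlap had to cover 50% of a region, Mnx1 shares were 1.57% of HD-only, 2.23% of WT-only and 2.77% of shared regions, and the H3K4me3 share of shared regions was 61.4%. At a −log10 q of 2 or more, the Mnx1 share of HD-only regions was 7.77%, and H3K4me3 shares were 18.4% of HD-only and 64.3% of shared regions. The class medians carried no test, and some of them changed sign between settings, as the values within 20 kb and without each library show. Named genes called in either fit kept the sign of their log2 fold change under the other scaling, filter, block and model. The effect of ChIP depth on the lists was not tested, and the 2 libraries per group limit the RNA tests.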
